A study of Mus musculus with 300 samples.

Results

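The cells described here are early progenitors of the embryonic mouse thymus that expressed Flt3 and little or no Il2ra. They were chosen by their own transcripts: cells with a deposited log2 value of Il2ra under 3.5 and of Siglech under 5 were kept, and those with a Flt3 value of at least 3.5 were taken as Flt3-expressing. These were 63 cells, 24.1% of all cells in the matrix and 42.9% of the kept cells (95% Clopper-Pearson interval 34.7 to 51.3%). The other 84 kept cells, with Flt3 under 3.5, are called Flt3-low. A further 65 cells, with Il2ra of at least 3.5, Siglech under 5 and Flt3 under 3.5, are called Il2ra-expressing and served as a second comparison, and the remaining 49 cells entered neither. The study profiled the early thymic progenitor (ETP) population of the embryonic thymus at stage E15.5 by plate-based single-cell RNA sequencing (Smart-seq2, with 1 library per cell), and the labels give 300 cells of 4 mouse ids, of which 39 were not analysed here. All cells came from 5x polychromILC mice, a strain with fluorescent or surface reporters at loci of lymphoid transcription factors, among them Id2, Gata3, Rora and Bcl11b, and the labels name no treatment, no control strain and no second genotype. The sources used here give neither the sorting gate nor the number of embryos behind a mouse id.

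Flt3 encodes a receptor tyrosine kinase of the class III family, to which Kit, Csf1r and the platelet-derived growth factor receptors also belong. Its ligand acts on multipotent and lymphoid-primed progenitors, and Flt3 is known to be lost as cells become restricted to most, though not all, blood lineages. In the thymus the earliest progenitors, which arrive from the fetal liver, the bone marrow or both, can still give rise to myeloid, dendritic and innate lymphoid cells besides T cells. Under Notch signalling they turn on Tcf7, Gata3 and later Il2ra, which encodes CD25 and marks the next stage, and then Bcl11b, which is needed for commitment to the T lineage.

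In the 63 Flt3-expressing cells the Flt3 value ran from 3.64 to 10.83, with a median of 7.59. Flt3 lies on chromosome 5 at 147330741 to 147400489, on the minus strand (GRCm38). Mean Flt3 was 6.98 in mouse 1A (16 cells), 7.20 in 1B (27 cells), 7.37 in 2A (10 cells) and 8.28 in 2B (10 cells). The 10 cells of 2B spanned 7.46 to 8.95, a narrower range than the 4.89 to 10.83 of 2A. In Flt3-low cells the corresponding means were 0.74, 0.44, 0.66 and 1.10. The cells nearest the threshold had values of 3.64, 3.86 and 4.17 on the inside and 2.93, 2.90 and 2.75 on the outside, and only 8 kept cells lay between 2.5 and 4.5. Flt3 was nonetheless detected in 33 of the 84 Flt3-low cells, so that group holds cells with low levels besides cells without reads. Il2ra in Flt3-expressing cells ran from -0.44 to 3.44 (median 0.34) and Siglech from 0.03 to 4.81 (median 1.02). These values chose the cells and are given as a description, without a test.

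**Figure D1:**
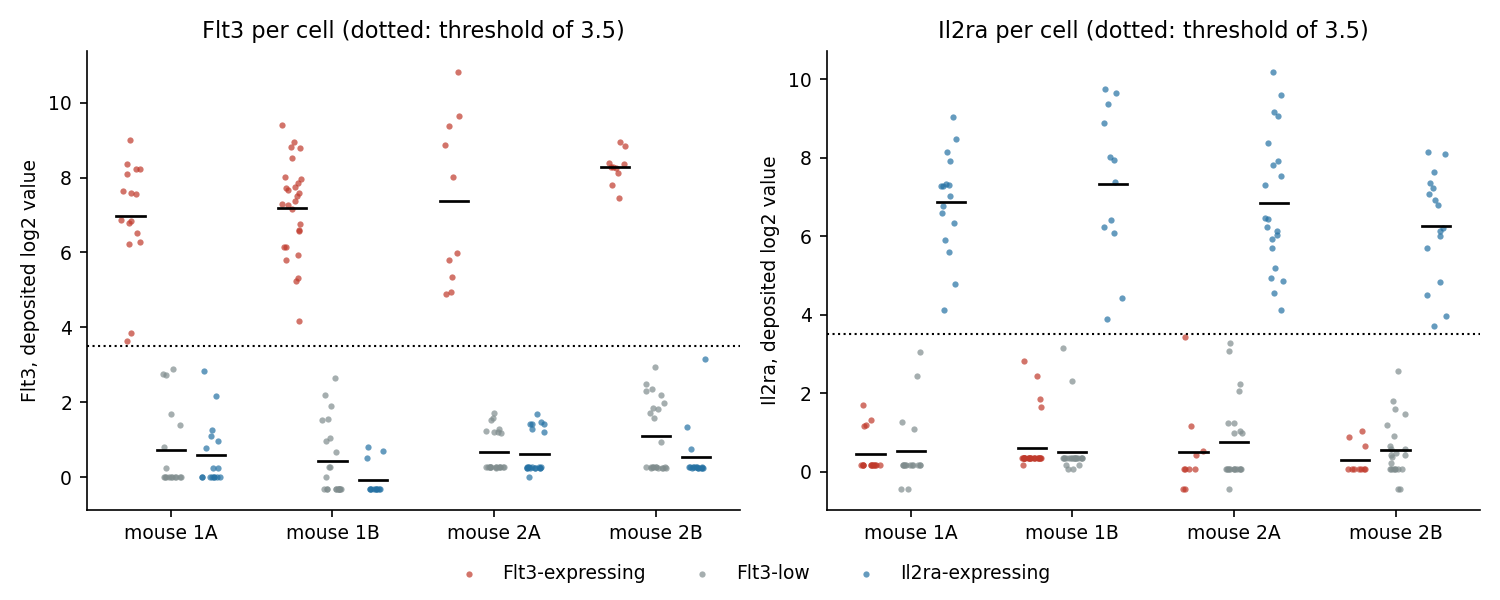
Deposited log2 values of Flt3 (left) and Il2ra (right) in each cell, by mouse id and group; each point is a cell, the black line is the mean of the group in that mouse, and the dotted line is the threshold of 3.5. The Flt3-expressing cells of mouse 2B lie between 7.46 and 8.95 for Flt3, and few kept cells lie near the threshold.

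The share of kept cells that were Flt3-expressing was 48.5% in mouse 1A (16 of 33, 95% interval 30.8 to 66.5%), 55.1% in 1B (27 of 49, 40.2 to 69.3%), 31.2% in 2A (10 of 32, 16.1 to 50.01%) and 30.3% in 2B (10 of 33, 15.6 to 48.7%). Such intervals cover counting error only. The intervals of the 4 mice overlapped. By plate the share was 54.4% on AF1, 48.6% on AF2, 30.2% on JW7 and 16.7% on JW8. Mouse 1B was on AF1 only, and each other mouse was on a pair of plates. Mouse 2A was on AF2, where 5 of 10 kept cells were Flt3-expressing, and JW7, where 5 of 22 were. In mouse 1A, 4 of 16 Flt3-expressing and 4 of 17 Flt3-low cells were on AF1 and the rest on AF2. In mouse 2B, 8 of 10 Flt3-expressing and 13 of 23 Flt3-low cells were on JW7 and the rest on JW8.

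Properties of the data that bear on every comparison are given first. In the deposited matrix the cells fall into 4 sets that share exact values, at least 14.2% of values between any pair of cells of a set and 0.0% between sets. Sets 1 and 3 hold nearly all cells of mice 1B (64 of 69) and 1A (61 of 67), whereas mice 2A and 2B share a pair of sets, with 35 and 36 of their cells in set 2 and 26 and 25 in set 4. Mice 2A and 2B are therefore not separate in the way the authors adjusted the values, and their independence as animals is not stated. The p-values below measure the spread between the 4 mouse ids and would be too small if some of those were not separate animals.

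Flt3-expressing cells had more detected genes than Flt3-low cells. The mean number was 8019 in mouse 1A, 7938 in 1B, 8127 in 2A and 8422 in 2B, against 7214, 6795, 7694 and 8005 in Flt3-low cells. The difference was 700 ± 346 genes (SD, n = 4 mice) and had the same sign in 4 of 4 mice (exact sign-flip permutation test, two-sided, p = 0.125, the smallest that 4 mice allow). Plate and number of detected genes were therefore terms of the model used for single genes.

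Cells carrying markers of other lineages were also unevenly spread. A cell was counted when at least 3 of 6 fixed markers of natural killer and innate lymphoid cells (NK/ILC), mast cells or basophils, macrophages or dendritic cells reached 3.5. Among Flt3-expressing cells 9 of 63 did (14.3%), against 38 of 84 Flt3-low cells (45.2%; 8 of 17, 12 of 22, 14 of 22 and 4 of 23 by mouse) and 7 of 65 Il2ra-expressing cells. No Flt3-expressing cell met the NK/ILC count (0 of 63, which allows a share of up to 4.76%), whereas 19 of 84 Flt3-low cells did. Mast or basophil markers gave 1 against 8 cells, macrophage markers 3 against 9 and dendritic markers 6 against 12. The summed level of the 6 NK/ILC markers ran over mouse means from 2.96 to 4.97 in Flt3-expressing and from 6.93 to 25.1 in Flt3-low cells, and that of the 6 mast or basophil markers from 4.67 to 7.88 and from 8.91 to 16.7. Macrophage sums overlapped (9.64 to 10.8 against 7.59 to 12.4), as did dendritic sums (9.13 to 12.95 against 9.54 to 15.3). The B-cell markers summed to 3.79 to 5.50 in Flt3-expressing against 5.84 to 7.82 in Flt3-low cells. Of these, Pax5, which defines B-cell commitment, was detected in 0 Flt3-expressing cells, whereas Cd79b reached 3.5 in 35 of 63. The 4 measured erythroid markers summed to 3.71 to 8.05 against 3.82 to 9.53. Epor was detected in 0 Flt3-expressing cells, but Hbb-bt reached 3.5 in 23 of 63 and Hbb-bs in 20. Thymic epithelium markers summed to 0.97 to 2.67 against 2.46 to 6.99. The gene lists are therefore also given without these 47 cells, as are some of the named genes. Many of the markers, among them Il2rb, Gzma, Cpa3 and Apoe, also stand on the gene lists below. For such genes, leaving those cells out moves the difference partly by construction, because the genes chose the cells.

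**Figure D2:**
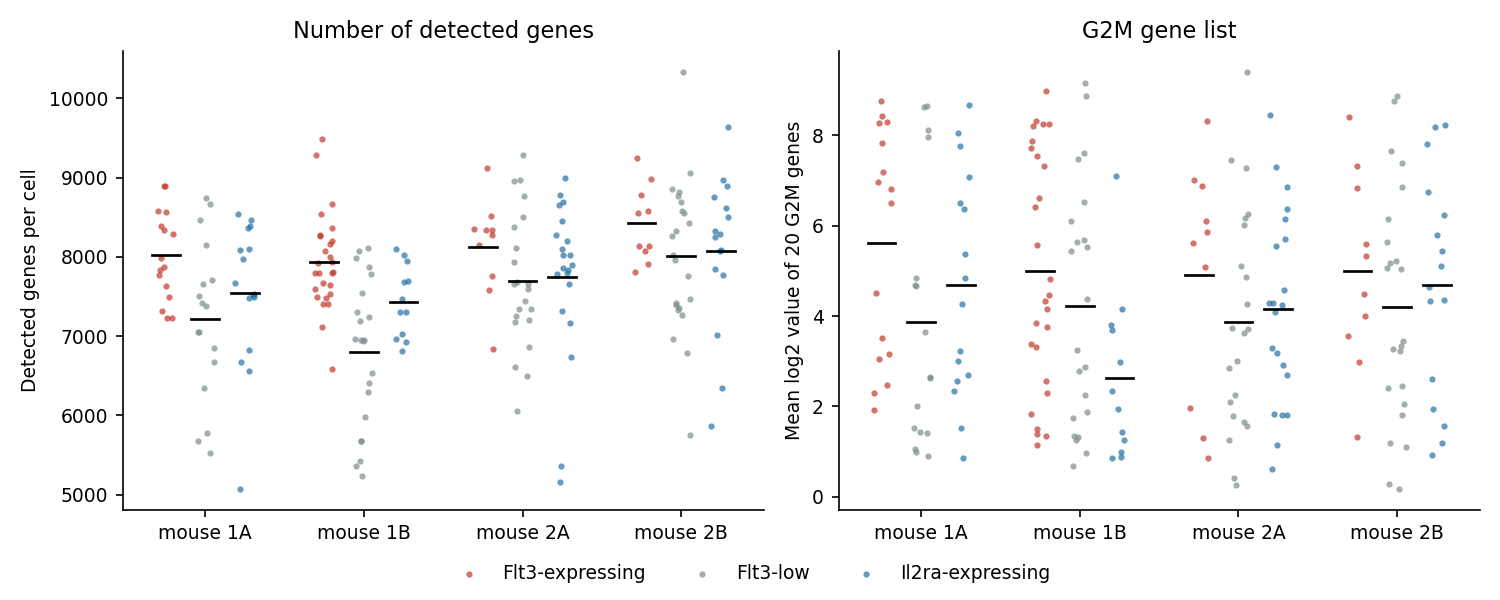
Detected genes per cell (left) and the mean log2 value of 20 genes of the G2 and M phases (right), by mouse id and group; each point is a cell and the black line is the mean. In each mouse the mean of the Flt3-expressing cells is above that of the Flt3-low cells in both panels.

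The label of early progenitor was checked with the 3 markers that the rule did not use. Kit, the stem cell factor receptor, Cd34, a sialomucin of blood progenitors, and Spi1, which encodes the transcription factor PU.1, all reached 3.5 in 61 of 63 Flt3-expressing cells, and the other 2 cells had both Cd34 and Spi1. In Flt3-low cells all 3 markers reached that level in 39 of 84 cells and none in 13, and in Il2ra-expressing cells all 3 did in 46 of 65. The summed level of Flt3, Kit, Cd34 and Spi1, of which Flt3 chose the cells, was 32.5 to 34.1 over mouse means. The Flt3-expressing cells thus carried the markers of their label nearly without exception. The markers were not particular to them. Without cells carrying markers of other lineages, Kit reached 3.5 in 44 of 46 Flt3-low cells, Cd34 in 39 and Spi1 in 38.

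Mean Cd34 (chromosome 1, 194938819 to 194961279, plus strand) was 10.26, 9.94, 10.33 and 10.38 in Flt3-expressing cells (mice 1A, 1B, 2A, 2B). In Flt3-low cells it was 6.02, 4.83, 4.2 and 6.55, and in Il2ra-expressing cells 6.96, 7.34, 7.84 and 7.59. All 4 means of Flt3-expressing cells lay above those of Flt3-low cells, as held for 16% of the genes tested. Cd34 reached 3.5 in 63 of 63, 46 of 84 and 55 of 65 cells. Spi1 (chromosome 2, 91082390 to 91115756, plus strand) had means of 6.98, 7.41, 8.13 and 7.04 against 6.57, 4.99, 4.44 and 5.49 in Flt3-low cells. Kit (chromosome 5, 75574916 to 75656722, plus strand) had means of 8.23, 8.12, 8.03 and 8.40 against 6.97, 5.46, 4.59 and 6.73. In Il2ra-expressing cells Kit lay at 7.83 to 8.65, a range that overlapped that of the Flt3-expressing cells.

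The first comparison asked which genes differed between Flt3-expressing and Flt3-low cells. In each mouse the log2 value of a gene was regressed on group, plate and number of detected genes, and the 4 coefficients, here called differences, were tested against 0 with limma. A difference is on the scale of the authors' corrected log2 values, and no fold change is derived from it. None of 12499 genes passed an adjusted p (Benjamini-Hochberg) of 0.05 in either direction, which is 0% higher and 0% lower. At an unadjusted p under 0.05 there were 1162 genes, 715 higher and 447 lower. Without the plate and depth terms limma called 945 genes higher (7.56%) and 81 lower (0.648%) in Flt3-expressing cells. Of those 945 genes 943 kept a positive sign with the terms in, and their median difference was 0.83 in place of 1.59. All 81 kept a negative sign, with a median of -1.24 in place of -1.56. When the cells with markers of other lineages were left out, no gene passed with the terms (924 at an unadjusted p under 0.05) or without them (1163). Pairing cells within a mouse on the number of detected genes, at most 300 apart (36 cells of each group, no covariates), also called 0 genes (975 at an unadjusted p under 0.05).

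The mouse means of Flt3-expressing cells lay above all 4 means of Flt3-low cells for 16% of the genes tested (1994 genes) and below all 4 for 2.1%. Statements below that the means of these groups do not overlap are read against these shares. No such share was counted against Il2ra-expressing cells.

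The smallest adjusted p belonged to Gfra1, which encodes a coreceptor for glial cell line-derived neurotrophic factor that signals with Ret (chromosome 19, 58235604 to 58455909, minus strand). Its mean was 6.37, 5.06, 6.13 and 5.64 in Flt3-expressing cells (mice 1A, 1B, 2A, 2B), and 1.55, 1.35, 1.34 and 0.92 in Flt3-low cells. The lowest mean of the first group was more than 3 log2 units above the highest of the second. Gfra1 reached 3.5 in 47 of 63 Flt3-expressing cells, in 13 of 84 Flt3-low and in 17 of 65 Il2ra-expressing cells. Its difference was 4.01 ± 0.41 (SE), positive in 4 of 4 mice, with an adjusted p of 0.0505 by limma. Over 24 alternatives the difference stayed between 2.40 and 4.53, with adjusted p from 0.00354 to 0.626, and it passed in 9 of them. Without cells carrying markers of other lineages it was 3.72, with 41 of 54 against 10 of 46 cells at 3.5.

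Cd34 had a difference of 3.65 ± 0.43 (adjusted p = 0.0789, positive in 4 of 4 mice; 0.000624 to 0.626 over the alternatives), and 2.78 without cells of other lineages, where 54 of 54 against 39 of 46 cells reached 3.5. Ebi3, a subunit of interleukin-27 and interleukin-35, had means of 5.36, 5.68, 6.14 and 5.20 against 2.89, 2.28, 2.62 and 2.43, and reached 3.5 in 52 of 63 against 31 of 84 cells. The groups did not overlap, and the difference was 2.86 (adjusted p = 0.0657), or 1.77 without cells of other lineages. Hoxa9, a homeobox gene of blood progenitors on chromosome 6 (52223100 to 52231089, minus strand), had means of 4.32, 2.97, 3.81 and 3.70 against 1.36, 0.71, 0.23 and 0.59. It reached 3.5 in 35 of 63 Flt3-expressing cells, in 9 of 84 Flt3-low cells and in 7 of 65 Il2ra-expressing cells, and its difference was 2.64 (adjusted p = 0.106). The other genes with the smallest p on the higher side were Afap1l1 (difference 3.00, or 2.29 without cells of other lineages), Hmga2 (2.17), Gcnt2 (2.10) and Emb (1.99). Each was positive in 4 of 4 mice and none passed the threshold. Genes chosen for a small p over the 4 mice mostly share a sign through that choice, so such sign counts add no support.

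On the lower side no gene came as near to the threshold. P2rx1, an ATP-gated ion channel, had means of 1.45, 1.42, -0.06 and 0.18 in Flt3-expressing and of 3.61, 2.90, 2.38 and 2.54 in Flt3-low cells, with a difference of -2.39 (adjusted p = 0.215). Fcer1g, the signalling chain shared by Fc receptors and several NK receptors, reached 3.5 in 31 of 63 against 68 of 84 cells, with means of 3.48, 3.62, 3.07 and 1.90 against 6.19, 6.74, 7.84 and 5.07. Its difference was -2.54, and -1.81 without cells of other lineages. Cd63, a tetraspanin of lysosomes and granules (-2.68), Gpc1 (-2.37), Osbpl5 (-1.86), Hpcal1 (-1.77), Nebl (-1.63) and Wdtc1 (-1.62, or -0.84 without cells of other lineages) completed the 8 genes with the smallest p, all negative in 4 of 4 mice at an adjusted p of 0.319.

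**Figure D3:**
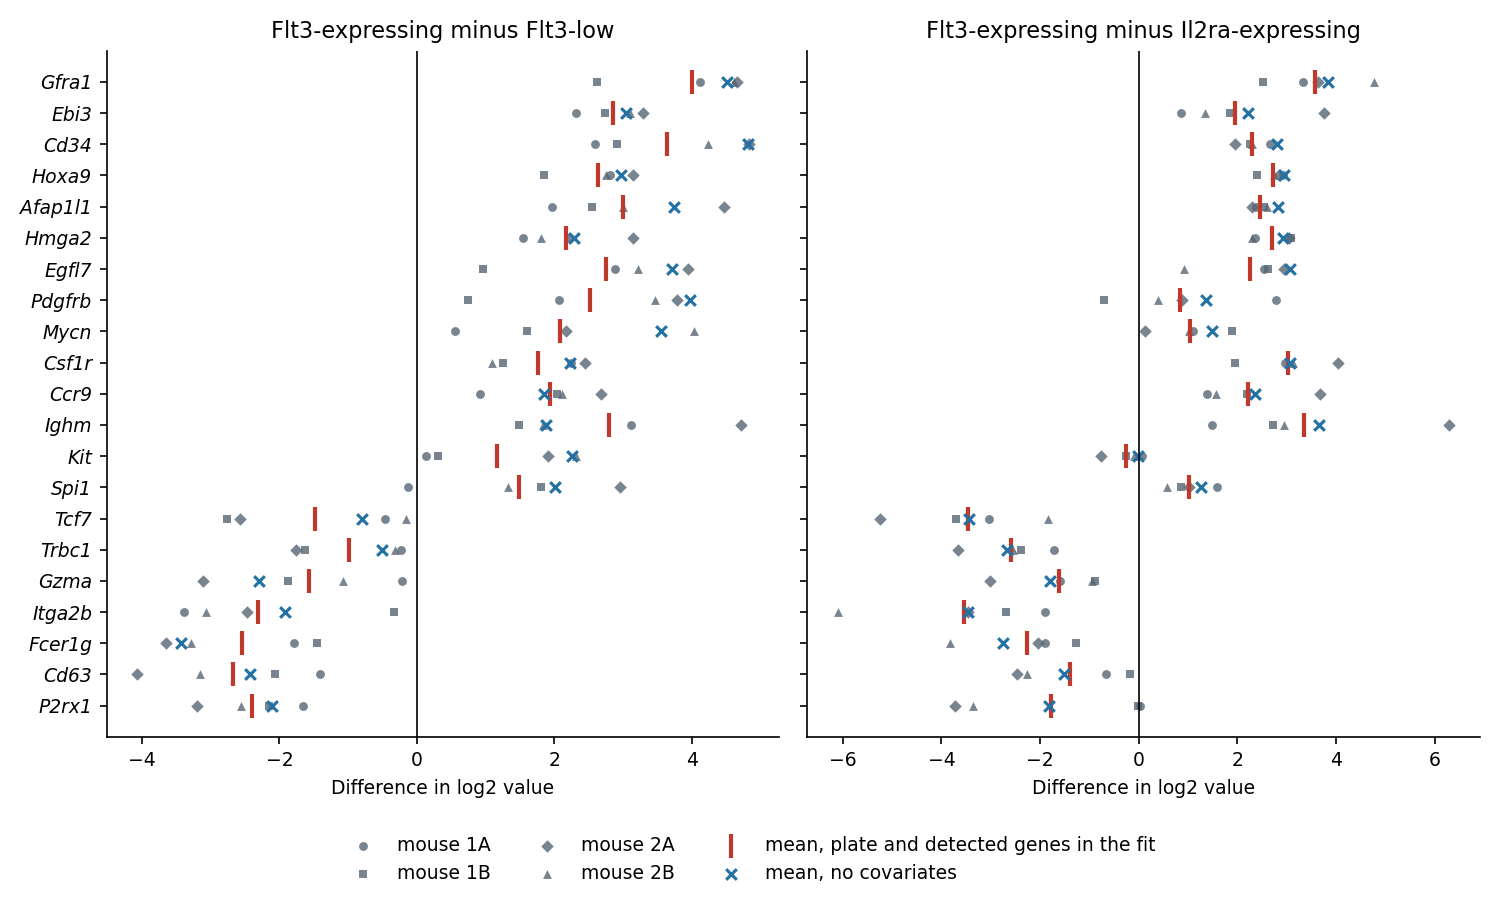
Differences in log2 value between Flt3-expressing and Flt3-low cells (left) and between Flt3-expressing and Il2ra-expressing cells (right) for 21 named genes; grey symbols are the 4 mice, the red bar is their mean with plate and detected genes in the fit, and the blue cross is the mean without these terms. Gfra1, Cd34 and Hoxa9 lie to the right of 0 in all mice in both panels, whereas Kit lies near 0 on the right.

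The gene lists were described by counts and medians over their measured members. Of 12499 genes tested, 54.7% had a positive difference and the median was 0.06. Of 24 progenitor genes 23 were measured well enough to test, and 20 of these had a positive difference, with a median of 0.81. At an unadjusted p under 0.05, 11 were higher and 1 was lower, and none passed after adjustment. Egfl7, a secreted factor of endothelium and progenitors, had a difference of 2.75, or 2.05 without cells of other lineages. It reached 3.5 in 59 of 63 against 37 of 84 cells. Lmo2, a bridging factor of blood transcription complexes, had a difference of 2.30 and reached 3.5 in 30 of 63 against 12 of 84 cells. The 1 progenitor gene lower at an unadjusted p under 0.05 was Gata2, a factor shared with mast cells. Kit had a difference of 1.17 (adjusted p = 0.477) that was 0.18 without cells of other lineages, and Spi1 one of 1.49 (adjusted p = 0.416). Without those cells 17 of 23 progenitor genes were positive, with a median of 0.53, against 51.2% and 0.01 over all genes.

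All 3 measured relatives of Flt3 in the class III family had positive differences. Csf1r, the receptor of macrophage colony-stimulating factor, had means of 5.75, 4.57, 5.31 and 4.55 against 2.80, 2.85, 2.31 and 3.32 in Flt3-low cells, and it reached 3.5 in 37 of 63, 25 of 84 and 12 of 65 cells. Its difference was 1.77 (adjusted p = 0.326), and 2.32 without cells of other lineages. Csf1r is also one of the macrophage markers, of which 3 or more were at 3.5 in 3 Flt3-expressing cells. Pdgfrb, a platelet-derived growth factor receptor, had means of 8.89, 7.59, 8.97 and 8.44 against 5.42, 3.79, 3.84 and 4.91, a difference of 2.52, or 1.38 without cells of other lineages. With Kit, the 3 genes had a median of 1.77 and each had an unadjusted p under 0.05. Without cells of other lineages the median was 1.38, and 2 of the 3 had such a p.

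Flt3l, which encodes the ligand of Flt3, reached 3.5 in 8 of 63 Flt3-expressing and 23 of 84 Flt3-low cells, with a difference of -1.03. Without cells of other lineages it did so in 8 of 54 (14.8%, 95% interval 6.62 to 27.1%) against 9 of 46 cells (19.6%, 9.36 to 33.9%), and the difference was -0.57. Of the 19 genes of Flt3 ligand and signalling 7 had a positive difference, and the median was -0.31. At an unadjusted p under 0.05, 0 were higher and 2 were lower, Flt3l and the kinase Fes (-0.95), and neither passed after adjustment. Without cells of other lineages the list was 7 of 19 positive, with a median of -0.35.

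Genes of a fetal program had positive differences in 5 of 6 measured members (median 1.05, 4 at an unadjusted p under 0.05). Hmga2, a chromatin protein of fetal stem cells, reached 3.5 in 37 of 63 Flt3-expressing cells, in 14 of 84 Flt3-low cells and in 6 of 65 Il2ra-expressing cells. Mycn, a Myc family factor, had means of 8.49, 7.94, 7.81 and 9.14 against 5.86, 4.12, 3.89 and 5.31, with a difference of 2.09, or 1.13 without cells of other lineages. The RNA-binding proteins Igf2bp1 and Igf2bp3 had differences of 1.32 and 0.78, or 0.92 and 0.35 without cells of other lineages, where 5 of 6 genes of the list were positive (median 0.83).

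The lympho-myeloid list was mixed. Of 12 tested genes of 16 listed, 4 were positive and the median was -0.25, as were 4 of 11 (median -0.25) without cells of other lineages. Besides Csf1r, the sialic acid receptor Cd33 had means of 5.16, 5.71, 5.62 and 4.22 against 2.79, 1.51, 3.37 and 3.06, and a difference of 1.85. Lysozyme (Lyz2) had a difference of 0.86, whereas the Fc receptor Fcgr3 had one of -1.50, or -0.40 without cells of other lineages. Mpo, the granule enzyme myeloperoxidase, was at 3.5 in 54 of 63, 57 of 84 and 57 of 65 cells of the 3 groups. The members of the list thus lay on both sides of 0.

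Early lymphoid genes had positive differences in 12 of 15 tested members (median 0.52), 5 of them at an unadjusted p under 0.05 and 0 lower. With cells of other lineages left out, 11 of 15 were positive (median 0.51), 2 of them at such a p. Ccr9, a chemokine receptor of thymus-seeding cells, had means of 2.31, 2.89, 4.22 and 3.36 against 1.84, 0.80, 1.21 and 1.55, which did not overlap. It reached 3.5 in 19 of 63, 8 of 84 and 3 of 65 cells, and its difference was 1.94 (adjusted p = 0.319). Cd27, a costimulatory receptor of lymphoid progenitors, reached 3.5 in 62 of 63 against 56 of 84 cells, with a difference of 1.97, or 1.25 without cells of other lineages. Ly6a, which encodes Sca-1, had a difference of 1.41, and its mouse means overlapped. Igfbp4 had a difference of 1.26, or 0.06 without cells of other lineages. Il7r, the interleukin-7 receptor chain that later progenitors depend on, was at 3.5 in 19 of 63, 25 of 84 and 19 of 65 cells, and Rag1 in 9, 5 and 5 cells. Without cells of other lineages Il7r was at 3.5 in 19 of 54 Flt3-expressing and 8 of 46 Flt3-low cells. Ly6a, Il7r and Rag1 therefore marked only a minority of the Flt3-expressing cells.

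Ighm, the constant region of the immunoglobulin mu chain, stood on the B-cell list with Pax5 at 0 cells and Cd79b at 3.5 in 35 of 63 Flt3-expressing cells. Its means were 5.42, 5.09, 7.63 and 4.57 in Flt3-expressing cells and 3.34, 5.15, 3.90 and 2.83 in Flt3-low cells. The means overlapped through mouse 1B. Ighm reached 3.5 in 43 of 63, 30 of 84 and 13 of 65 cells, with a difference of 2.79 (adjusted p = 0.319). Without cells of other lineages the difference was 4.11 (adjusted p = 0.289; 0.0557 to 0.631 over 24 alternatives), with 36 of 54 Flt3-expressing against 4 of 46 Flt3-low cells at 3.5. Most of the Flt3-low cells with Ighm were thus among the cells that carried other lineage markers.

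Genes of T-cell specification had negative differences in 15 of 19 tested members. Their median was -0.35, with 1 higher (Trbc2) and 6 lower at an unadjusted p under 0.05. Leaving out cells of other lineages, 14 of 17 were negative (median -0.35), 4 of them lower at such a p. Tcf7, which encodes TCF-1, had means of 3.68, 3.02, 2.78 and 4.53 against 3.24, 5.23, 3.89 and 4.84, which overlapped, and reached 3.5 in 31 of 63 against 46 of 84 cells. Its difference was -1.49 (adjusted p = 0.430), or -2.25 without cells of other lineages. Trbc1, a constant segment of the T-cell receptor beta chain, had a difference of -0.98 (-1.63 without those cells), Cd247 of -0.86 and Ets1 of -0.95, the last of which was 0.18 without them. Gata3 was at 3.5 in 46 of 63, 53 of 84 and 54 of 65 cells, and Lck in 61, 71 and 65. Bcl11b was at 3.5 in 0 of 63 Flt3-expressing cells (a share of up to 4.76% is allowed), in 9 of 84 Flt3-low cells and in 11 of 65 Il2ra-expressing cells.

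Notch1 was at 3.5 in 62 of 63, 77 of 84 and 63 of 65 cells. Of 6 measured Notch targets 4 had a positive difference, with a median of 0.11. The list gave 5 of 6 positive (median 0.61) without plate and depth terms, 2 of 6 (median -0.24) with the terms but without cells of other lineages, and 0 of 6 (median -0.18) with neither. Dtx1 had a difference of -1.15, or -1.91 without those cells. The direction of the Notch target list thus turned with the setting. Without the plate and depth terms 945 of all genes tested were called higher and 81 lower, and the share of all genes positive there is not given.

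Genes of innate lymphoid precursors had negative differences in 13 of 14 members (median -0.43, 0 higher and 2 lower at an unadjusted p under 0.05), and NK genes in 11 of 12 (median -0.62, 0 and 2). Il2rb, the interleukin-2 and interleukin-15 receptor beta chain, was at 3.5 in 0 of 63 Flt3-expressing and 18 of 84 Flt3-low cells, with mean values of 0.40, 0.43, 0.05 and 0.29 against 1.54, 4.42, 3.91 and 0.78. The values in Flt3-low cells were high in mice 1B and 2A and low in 2B, as was the number of NK/ILC cells (8, 9 and 0 in 1B, 2A and 2B). Without cells of other lineages the difference of Il2rb was -0.32 in place of -1.08, and 6 of 13 ILC precursor genes were positive (median -0.12). Without those cells the NK list was 2 of 8 positive (median -0.23). Il2rb and several NK genes are among the markers that chose those cells, so these shifts follow partly from that choice. Gzma, granzyme A, was at 3.5 in 9 of 63, 36 of 84 and 28 of 65 cells, and Rora in 1, 13 and 4. Without cells of other lineages Rora was at 3.5 in 1 of 54, 3 of 46 and 1 of 58 cells. The difference of Gzma was -0.21, -1.87, -3.11 and -1.08 by mouse, and thus negative also in 2B, where no Flt3-low cell met the NK/ILC count. Its mean was -1.57, or -1.12 without cells of other lineages.

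Lists of other cell types were lower at the median. Mast and basophil genes had a median of -0.42 (1 of 6 positive; -0.03 and 2 of 5 without cells of other lineages), with Cpa3, a mast cell protease, at -1.76. Erythroid and megakaryocyte genes had a median of -0.16 (2 of 7 positive; -0.36 and 2 of 7 without those cells), with Itga2b, the CD41 integrin of megakaryocytes and early blood cells, at 3.5 in 6 of 63, 34 of 84 and 41 of 65 cells and a difference of -2.31. Macrophage genes had a median of -0.42 (1 of 9 positive), which was 0.21 (8 of 8 positive) without cells of other lineages. The macrophage list shares Adgre1, Apoe, C1qa, C1qb and C1qc with the markers that chose those cells. Dendritic genes had a median of -0.29 (-0.14 without those cells), with Bst2 at 0.95. Gamma-delta T genes had a median of -0.60 (-0.69), with Trdc at -0.95 (-1.61) and Sox13 at 0.79 (0.35), and thymic stroma genes one of -0.71 (-0.62), with Epcam at -1.38; values in parentheses are again without those cells. B-cell genes had a median of -0.08 (0.20). None of these genes passed after adjustment. Homing genes were positive in 5 of 11 (median -0.11), and in 10 of 11 (median 0.26) without cells of other lineages. Immediate early genes were positive in 4 of 9 (median -0.08; Zfp36 at 1.20), and in 5 of 9 (median 0.09; Zfp36 at 1.84) without them.

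**Figure D4:**
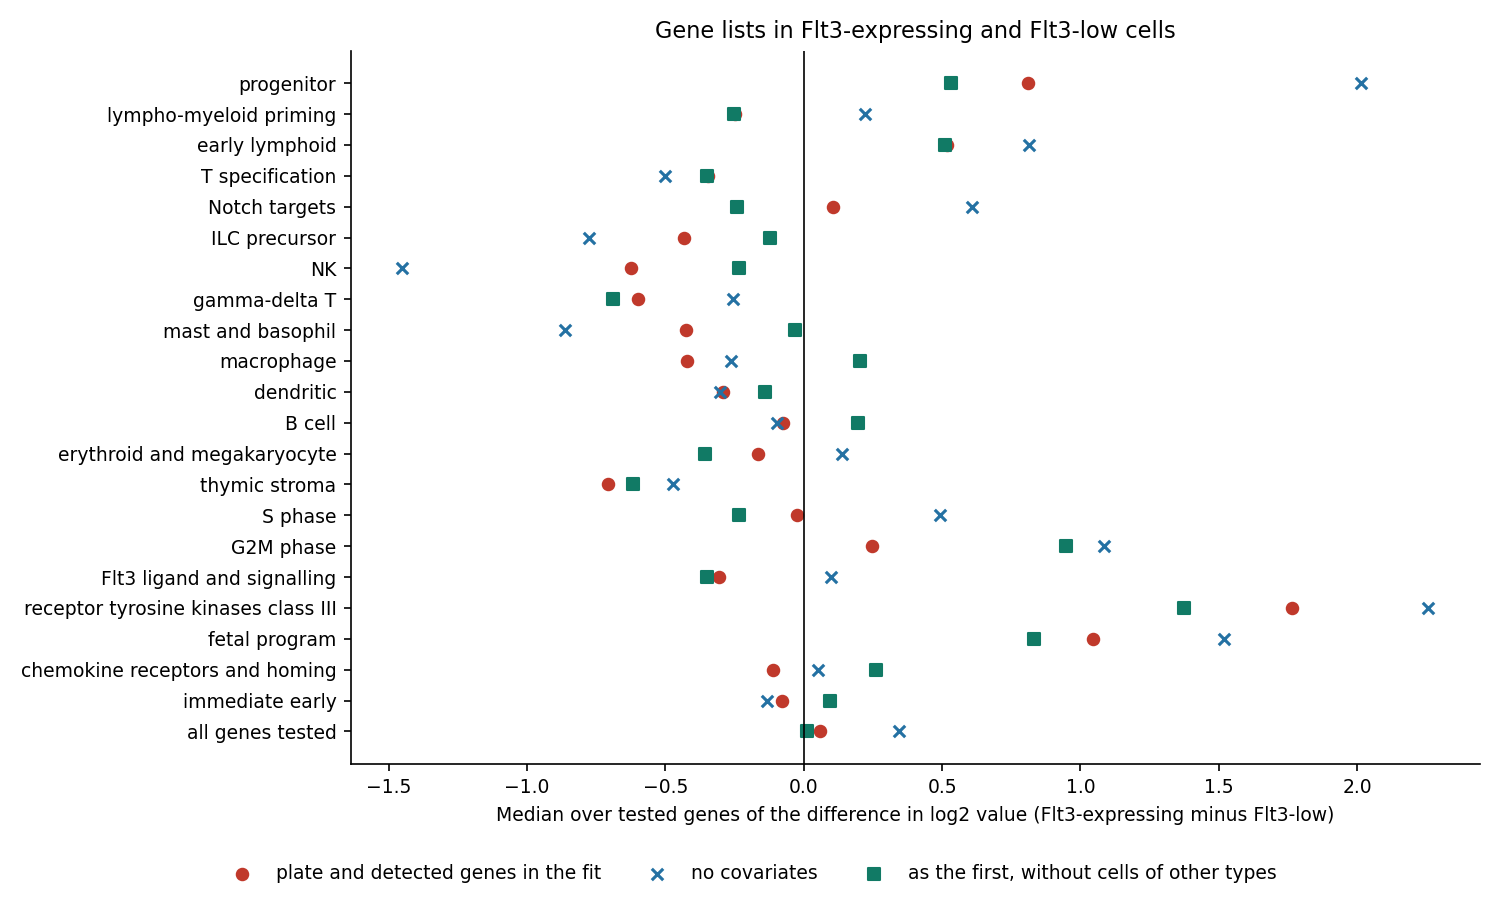
Median difference over the tested genes of each list between Flt3-expressing and Flt3-low cells, with plate and detected genes in the fit (circles), without these terms (crosses), and with the terms but without cells carrying markers of other lineages (squares). Progenitor, class III receptor, fetal and G2M lists are among those right of 0 in all 3 settings, and the macrophage list moves from -0.42 to 0.21 when those cells are left out. The progenitor list shares Kit with the class III receptor list and Mycn with the fetal list. The macrophage list shares genes with the markers that chose those cells.

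Cell-cycle transcripts varied with the setting. The mean log2 value over 20 genes of the G2 and M phases was higher in Flt3-expressing cells by 1.75, 0.79, 1.03 and 0.79 in the mice 1A, 1B, 2A, 2B (mean 1.09 ± 0.45 SD, n = 4, exact sign-flip permutation p = 0.125). The corresponding S-phase differences were 0.51, 0.93, -0.02 and 0.89 (exact p = 0.25). With plate and detected genes in the fit, 12 of the 20 G2 and M genes were positive (median 0.25), against 19 of 20 (median 1.09) without these terms and 18 of 20 (median 0.95) with the terms but without cells of other lineages. Without the terms 945 of all genes tested were called higher and 81 lower, and the share of all genes positive there is not given. Counts of positive genes without the terms are therefore not read as results about the cycle lists. Ccnb2 and Cdc20, mitotic regulators, had differences of 1.03 and 1.07, whereas the mitotic kinases Cdk1 and Aurkb had differences of -1.88 and -1.53, and without the terms these were -0.30 and 0.10. When cells of other lineages were left out, the 4 differences were 1.89, 2.07, -1.21 and -0.64. Of 20 S-phase genes 9 were positive (median -0.03, 19 positive with a median of 0.49 without the terms), with Cdc45, Cdc6 and Atad2 at -0.77, -0.75 and -0.71 (0.45, -0.05 and 0.13 without the terms). When such cells were left out, 4 of 20 S-phase genes were positive (median -0.23), and Cdc45 was at -1.30. The part of depth in the cycle genes, and of the cycle in depth, was not tested.

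The second comparison placed the Flt3-expressing cells beside the Il2ra-expressing cells. It uses the same 63 cells as the first, so the values of both are set side by side and no overlap is tested. Of 12398 genes tested 0 were higher (0%) and 1 was lower (0.00807%) at an adjusted p of 0.05, with 569 higher and 498 lower at an unadjusted p under 0.05. Without plate and depth terms 7 genes were higher (0.0565%), namely Gfra1, Hoxa9, Afap1l1, Hmga2, Cd34, Txnip and Egfl7, and 1 was lower (0.00807%).

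The gene that fell in Flt3-expressing cells relative to Il2ra-expressing cells was Scin, which encodes scinderin, an actin-severing protein (chromosome 12, 40059769 to 40134228, minus strand). Its mean was 2.88, 2.65, 2.87 and 3.43 in Flt3-expressing cells (mice 1A, 1B, 2A, 2B), and 6.06, 6.28, 7.64 and 7.60 in Il2ra-expressing cells. Scin reached 3.5 in 20 of 63 against 55 of 65 cells. The difference was -4.27 ± 0.32 (SE; -3.81, -4.74, -4.79 and -3.71 by mouse), with an adjusted p of 0.0141 by limma. When any 1 of mice 1A, 1B, 2A and 2B was left out the difference was -4.09 to -4.45 and the adjusted p 0.0540 to 0.187, so the call rests on all 4. In Flt3-low cells Scin lay at 3.23, 3.51, 2.74 and 4.81, a range that overlapped that of the Flt3-expressing cells.

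Next to Scin on the lower side were Trbj1-1 (-2.63), Trbc1 (-2.58), Trbj1-7 (-2.07), Cd160 (-2.04), the death ligand Tnfsf10 (-2.03), Gse1 (-1.92) and Tcf7 (-3.46, adjusted p = 0.206), all negative in 4 of 4 mice and none past the threshold. Segments of the T-cell receptor loci share spliced transcripts, so reads of Trbj1-1, Trbj1-7 and Trbc1 are not separate measurements. Tcf7 reached 3.5 in 31 of 63 Flt3-expressing and 59 of 65 Il2ra-expressing cells, with means of 3.68, 3.02, 2.78 and 4.53 against 6.92, 6.68, 7.79 and 6.39. These ranges did not overlap, but the share of all genes with ranges apart was not counted for this comparison. With the 4 correction sets in place of the mice as units Tcf7 had a difference of -3.56 and an adjusted p of 0.0113 (0.0113 to 0.593 over the alternatives).

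On the higher side the smallest p belonged to Hoxa9 (2.72, adjusted p = 0.0644), Afap1l1 (2.45, 0.0807), Hmga2 (2.70, 0.0807), Gfra1 (3.57, 0.0858), Cd34 (2.29, 0.101), Txnip (2.43), Csf1r (3.02, 0.113) and Gcnt2 (2.12), each positive in 4 of 4 mice. Txnip, a thioredoxin-binding protein that limits glucose uptake, had means of 6.19, 5.78, 6.30 and 6.14 against 3.99, 3.41, 4.15 and 3.84. Its means in Flt3-low cells, 6.04, 5.51, 5.37 and 4.69, overlapped those of the Flt3-expressing cells. Kit and Spi1 had differences of -0.27 and 1.01. Gfra1, Cd34, Hoxa9 and Hmga2 thus had positive differences from both other groups in each of the 4 mice, without passing the test with the terms in either. These genes were chosen for their small p over the same mice, so the shared sign adds no support.

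By list, 15 of 23 progenitor genes were positive against Il2ra-expressing cells (median 0.51, 8 higher and 0 lower at an unadjusted p under 0.05), beside 51.95% and 0.02 over all genes. T specification genes were positive in 1 of 16 (median -0.70, 7 lower), with Gata3 at -1.55. Gamma-delta T genes were positive in 1 of 7 (median -1.32, 4 lower), with Tcrg-C1 at -2.12, Trdc at -1.95 and Trgj1 at -1.32. The gamma segments are near-identical copies whose reads may be split among them. Zbtb16, which encodes PLZF, a factor of innate lymphoid precursors, had a difference of -1.57 and the mast cell protease Cpa3 one of -3.81, with 27 of 63 against 59 of 65 cells at 3.5. Itga2b had a difference of -3.54. Ighm (3.36) and Ccr9 (2.21) were on the positive side, as against Flt3-low cells. Stat5a, Stat5b, Stat3 and Cbl, which act downstream of Flt3 and of cytokine receptors, had differences of -1.89, -1.28, -1.28 and -1.23. These genes were named for the smallest p on the list of Flt3 ligand and signalling and do not stand for that list. By share of cells at 3.5 its other members lay on both sides. Akt1 (46 of 63 against 36 of 65) and Dusp6 (53 against 42) were higher, and Pim1 (20 against 31) was lower. None of the genes in this paragraph passed after adjustment.

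**Figure D5:**
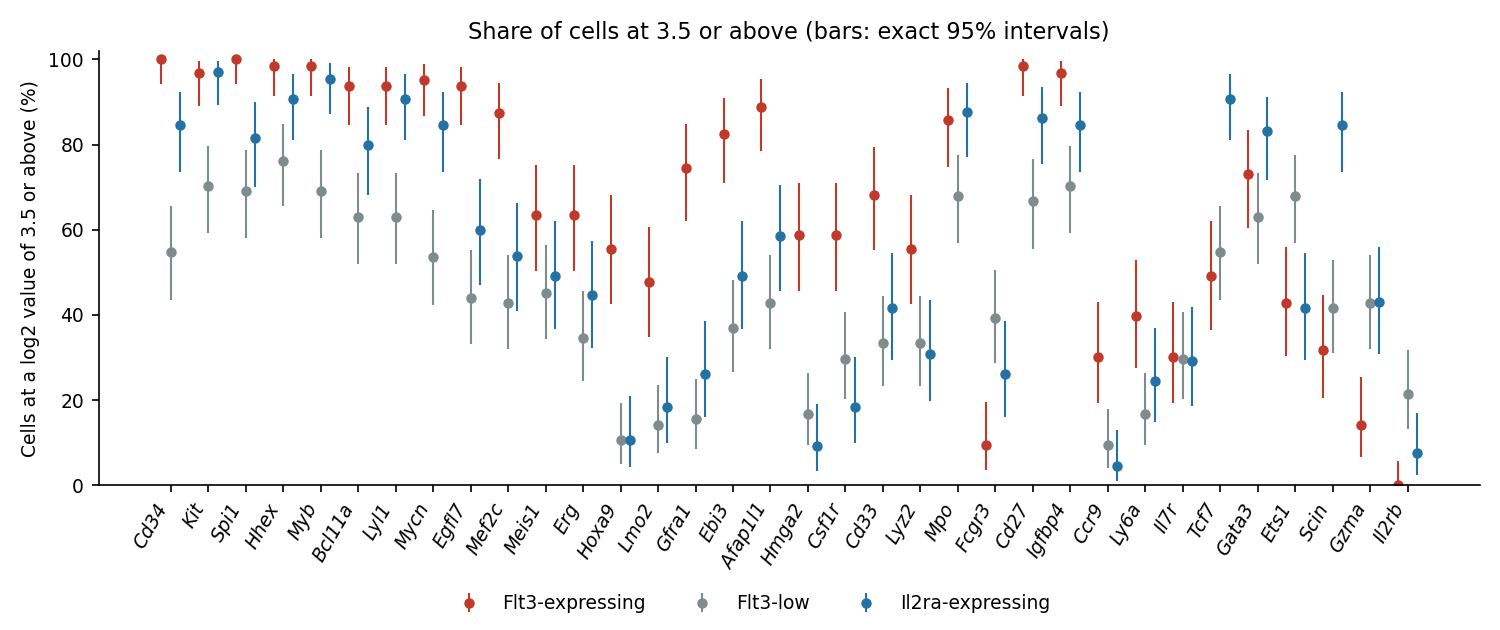
Share of cells at a deposited log2 value of 3.5 or above for 34 genes in Flt3-expressing (63), Flt3-low (84) and Il2ra-expressing (65) cells; points are shares over all mice and bars are exact 95% intervals for counting error. Gfra1 stands at 74.6%, 15.48% and 26.2%, Hoxa9 at 55.6%, 10.7% and 10.8%, and Tcf7 at 49.2%, 54.8% and 90.8%.

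Transcripts of the reporters were read beside the genes at whose loci they sit, with loci assigned from knowledge of the strain. TdTomato, assigned to Bcl11b, was detected in 0 of 63 Flt3-expressing cells (up to 4.76% allowed), in 5 of 84 Flt3-low and in 6 of 65 Il2ra-expressing cells. mTeal, assigned to Rora, was detected in 3 of 63, 13 of 84 and 8 of 65 cells. The reporters of Bcl11b and Rora were thus rare or absent in Flt3-expressing cells, as were Bcl11b and Rora themselves. For Rora this was not particular to these cells. Without cells of other lineages Rora was at 3.5 in 1 of 54, 3 of 46 and 1 of 58 cells of the groups. Bcl11b was then at 3.5 in 0, 7 and 11 cells. The reporters were not counted without those cells. tagBFP, assigned to Id2, was detected in 52 of 63, 78 of 84 and 54 of 65 cells, and Id2 itself was at 3.5 in 42 of 63, 51 of 84 and 43 of 65. hCD2, assigned to Gata3, was detected in 39 of 63, 45 of 84 and 49 of 65.

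Within the Flt3-expressing cells some transcripts of several lineages were found side by side. The genes counted here were picked after their values were seen and do not stand for their lists. Other genes of the lympho-myeloid list were rare at 3.5 in these cells, among them Fcgr3 (9.52%), Csf3r (6.35%), Cebpa (3.17%) and Ctsg (1.59%), with Irf8 at 20.6%. The same held for T specification genes such as Cd3g (6.35%), Cd3d (4.76%), Cd247 (3.17%), Cd3e (1.59%) and Lef1 (1.59%), with Bcl11b and Cd2 at 0 cells. Of the genes Csf1r, Cd33, Lyz2 and Mpo, 14 cells had all 4 at 3.5, 24 had 3, 17 had 2, 7 had 1 and 1 had none. Of the genes Tcf7, Gata3, Trbc1 and Lck, 22 cells had all 4, 28 had 3, 9 had 2, 3 had 1 and 1 had none. In Flt3-low cells 6 of 84 had all 4 of the former genes and 34 all 4 of the latter (40.5%, against 34.9% of Flt3-expressing cells). In Il2ra-expressing cells 4 of 65 had all 4 of the former genes and 51 all 4 of the latter. Of the genes Ccr9, Il7r, Cd27 and Ly6a, 3 Flt3-expressing cells had all 4, 15 had 3, 23 had 2 and 22 had 1. Among 84 Flt3-low cells 0 had all 4, 3 had 3, 25 had 2 and 44 had 1. Among 65 Il2ra-expressing cells 1 had all 4, 3 had 3, 25 had 2 and 31 had 1.

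Csf1r and Il7r were together at 3.5 in 12 of 63 Flt3-expressing cells (19.05%), where the product of the separate shares is 17.7%. Csf1r and Tcf7 were together in 15 cells (23.8%, product 28.9%), Ccr9 and Il7r in 9 (14.3%, product 9.10%), and Ighm and Csf1r in 28 (44.4%, product 40.1%). These are counts of cells with shared libraries, plates and mice, given as a description. No caller for doublets was run, and wells with more than 1 cell were not tested for.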

How the data were processed

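Single cells of the embryonic thymus were sequenced in plates, and the authors' deposited matrix holds 13737 features for 261 cells as log2 values, negative ones included, after a batch correction by the authors. Per the submitters' processing notes the tool was Salmon and the build GRCm38. Versions, depth normalization, correction tool and filters were not given in the sources used here. While the plan allowed for TPM or counts, the log2 scale was kept. Read depth is unknown, so depth is the number of detected genes (value more than 1e-06 from the lowest value repeated in the cell's set). IDs were matched to GENCODE vM21 symbols (13578 matched, 154 not). 1 further reporter is not reported.

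Groups were cut on Flt3, Il2ra and Siglech. The members, the 21 lists and the tests were chosen with earlier results of these data known. In each of 4 mouse ids, with at least 5 cells of each group, each gene detected in at least 10% of the compared cells was regressed on group, plate and detected genes, and the 4 coefficients were tested with limma 3.58.1 (R 4.3.3, intercept only, two-sided, Benjamini-Hochberg over all genes, threshold 0.05). The moderated variance of limma draws on all genes. Scripts ran in Python 3.11.15 with numpy 2.4.6, pandas 2.3.3 and scipy 1.17.1, and the fits were tested on simulated data. Shares carry exact Clopper-Pearson 95% intervals, and a count of 0 allows 3 cells. Named were genes past the threshold, or else the 8 with the smallest p in each direction, Kit, Cd34 and Spi1, and up to 4 genes per list with the smallest p. Il7r, Rag1, Mpo, Gata3, Rora, Bcl11b, Notch1, Lck, Id2 and the genes of the closing counts per cell were named against Flt3-low cells after their values were seen, with shares only. Gata2 and Trbc2 were also named after their values were seen, by their direction at an unadjusted p under 0.05. Doublets were not called. Alternatives changed thresholds, covariates, units, filters, scaling and cells, and left out each mouse.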

Additional observations from a re-analysis of the deposited data

Results flagged for a closer look

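Among the named genes and cell measures, each a group of 4 per-mouse values, 6 had 1 mouse far from the other 3 by Dixon's criterion. Chance flags about 1 in 20 such groups, and the share flagged among all groups tested here was close to that. The 6 are therefore listed as a description, and none is read as a departure beyond chance. Between Flt3-expressing and Flt3-low cells, Hpcal1 differed by -0.93 in mouse 2A and by -2.01 to -2.08 in the others. Cd33 differed by 3.48 in mouse 1B, against 1.25, 1.26 and 1.40. Ctsw, a protease of NK cells, differed by -4.82 in mouse 2A, against -0.67, -0.88 and -1.05. The number of G2 and M genes at 3.5 or above per cell was higher by 4.92 in mouse 1A, against 2.51, 2.47 and 2.46. Between Flt3-expressing and Il2ra-expressing cells, Cd27 differed by -0.51 in mouse 1B, against 1.52, 1.44 and 1.63. Tcrg-C2 differed by -0.11 in mouse 1B, against -2.17, -1.96 and -2.16.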

How the results depend on the processing

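Between Flt3-expressing and Flt3-low cells, 0 genes were higher and 0 lower with plate and detected genes in the fit. The number higher was 945 without covariates, 776 with plate only, 2 with the correction set in place of plate, 4 with an Il2ra threshold of 5, 13 with ranks within mouse, 5 with a limma trend, and 1 each without the first 8 wells of each set, with genes detected in at least 25% of cells and with aligned zero levels. The number lower was 81 without covariates, 64 with plate only, and 1 each with ranks and with the trend. Leaving out each mouse gave 0 to 1 higher (1 without mouse 1B) and 0 lower. The remaining alternatives gave 0 in both directions. Pairing cells on depth, and leaving out cells of other lineages without covariates or with sets as units, were chosen after seeing the data. The cause of the higher counts was not tested. Against Il2ra-expressing cells, 0 were higher and 1 lower. The number higher was 7 without covariates, 1 with the correction set in place of plate and 1 with S and G2M covariates. The number lower was 2 with sets as units, 2 with sets as units and without cells of other lineages, and 0 to 0 when a mouse was left out. Signs turned for Igfbp4 (-0.19 without cells of other lineages with sets as units), Ets1 (0.18 without those cells, 0.12 without them with sets as units, 0.13 without them and without covariates), Cdc45 (0.45 without covariates, 0.26 with plate only), Atad2 (0.13 without covariates) and Aurkb (0.10 without covariates, 0.43 also without those cells), and against Il2ra-expressing cells for Cdk1 (0.16 without covariates); the cause was not tested. No other gene given with a difference changed sign in these alternatives.

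Limits are the 4 mouse ids, of which 2A and 2B share correction sets, the unknown read depth, and the authors' correction, whose effect on differences could not be undone. A level at or near 0 does not tell a silent gene from one that was not captured. The main test compares groups within each mouse.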
